A study of Mus musculus with 38 samples.

Results

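The subject of this report is the testis response 4 h after a single dose of 2.5 mg testosterone propionate. LuRKO mice, which lack a functional luteinising hormone receptor, were injected intraperitoneally on day 19 after birth. The response was measured on 2 arrays, replicates A and B, of the 38 single-colour Illumina bead arrays of the study, and each array carried RNA of testes pooled from 2 animals. Members were chosen by their labels, not by measured values.

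The arrays used for comparison all came from LuRKO testes. They were 2 arrays from mice given 250 ng and 2 from mice given 2.5 µg testosterone propionate, both injected on day 19 and taken 24 h later, called the low doses below. Both untreated arrays of day 19 served as a second check, and both arrays at 2 h and both at 8 h after 2.5 mg served as neighbours in time. Because the 4 h arrays belong to a time course, the low-dose arrays to a dose series and the untreated arrays to a developmental series, dose, hours after injection and series differ together and cannot be told apart.

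Luteinising hormone drives Leydig cells, the interstitial cells of the testis, to make testosterone, so a testis without its receptor has little androgen of its own. Testosterone binds the androgen receptor, a transcription factor, in Sertoli cells, peritubular myoid cells and Leydig cells, and germ cells respond through these somatic neighbours. DNA elements bound by the androgen receptor overlap with those bound by the glucocorticoid receptor, so a set of genes answers to both hormones in many tissues. The genes of the luteinising hormone receptor and the androgen receptor are not analysed here.

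Values are log2 of the authors' normalized intensities, so that a difference of 1 is a doubling. Differences are the mean of the 4 h arrays minus the mean of the 4 low-dose arrays unless stated, with standard errors (SE) and Benjamini-Hochberg adjusted p-values from limma, fitted over the 21 LuRKO arrays of day 19. The other arrays of that fit were those at 12, 24 and 48 h after 2.5 mg, and those of 25 µg and of vehicle at 24 h. A gene was represented by its brightest probe and called when its adjusted p was under 0.05. A probe was above background in a group when at least 1 of its arrays exceeded 6.54 on the log2 scale. In whole testis, fewer cells of a type and less RNA per cell cannot be told apart.

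Sertoli and Leydig cell markers fitted the tissue label. All 7 measured Sertoli cell markers and 4 of 5 Leydig cell markers were above background at 4 h, Hsd3b1 being the exception, and of 4 markers of adrenal gland or fat only Adipoq was. Of 4 markers of epididymis and efferent duct Lcn8 (6.94 and 6.73) and Aqp1 (7.90 and 7.98) were above background at 4 h. Whether such tissue was present was not tested. Paired arrays of one group correlated with r between 0.9895 and 0.9952. This was computed over the 26574 probes with 1 gene symbol that exceeded background on at least 2 of the 21 arrays. One control array stood apart: the array labelled vehicle replicate A read 12.34 for Insl3, a Leydig cell hormone, and 10.92 for Rhox5, an androgen-dependent Sertoli cell gene, while vehicle replicate B read 9.24 and 8.17. Its labels also disagree, with 34 h after day 19 in the age label and 24 h after injection in the time label. The vehicle arrays entered the shared estimate of spread, and values without them are given for each named gene whose call they change. Of the list counts below, the fit without them moved the higher calls to 4 for immediate early and 6 for matrix genes, to 2 for Leydig cell markers, and the lower calls to 3 for meiotic and 5 for spermatid genes. The 4 h arrays also differed between themselves in germ cell genes, as described below.

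Against the low doses, 1337 of 19057 genes (7.02%) were called at 4 h. Of these 620 (3.25%) were higher and 717 (3.76%) lower, and most differences were small. A difference of at least 1 was reached by 15 of the higher (0.0787% of all genes) and 65 of the lower genes (0.341%), and 4252 genes had an unadjusted p under 0.05. The count rested heavily on single arrays: it was 1270 without 4 h replicate A and 57 without 4 h replicate B, 489 without 250 ng replicate B and 767 without 2.5 µg replicate B. A core of 50 genes, 27 higher and 23 lower, was called with both 4 h arrays and again with either left out. This core was defined after its values had been seen, and the first genes described below belong to it. A called gene outside the core lost its call when at least 1 of the 4 h arrays was left out.

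The untreated arrays gave a second reading. Against them 3740 genes (19.6%) were called at 4 h, 10.6% higher and 9.07% lower, and the low doses themselves differed from untreated testes in 2245 genes (11.8%). Of the 620 genes higher than in the low doses, 423 (2.22% of all genes) were also called higher than untreated and 1 was called lower. Of the 717 lower genes 539 (2.83% of all genes) were also called lower than untreated and 0 higher. The same 4 h arrays enter both comparisons, so they are not independent. Among the 27 core genes higher at 4 h the median difference of the low doses from untreated was 0.07, and for the 23 core genes lower at 4 h it was -0.99. At low doses 3 of the 27 higher core genes were called lower and 1 higher than in untreated testes, whereas 19 of the 23 lower core genes were already called lower at low doses than in untreated testes, as were 6.43% of all genes. Over all genes, both 4 h arrays lay above all 4 low-dose and both untreated arrays in 11.6% and below them in 8.05%.

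The highest-ranking increase in the core was Ampd3, a deaminase that converts AMP to IMP. Ampd3 had a log2 intensity of 10.20 and 9.95 in the 4 h arrays, against 8.64 and 8.51 at 250 ng and 8.44 and 8.51 at 2.5 µg, and 8.49 and 8.42 untreated. Both 4 h arrays lay far above all low-dose and untreated arrays, which lay close together. The difference was 1.55 (SE 0.12, adjusted p = 1.91e-07), a 2.93-fold increase, and a dimmer second probe of the gene was not above background. Among secreted factors, Angptl4, an inhibitor of lipoprotein lipase, read 9.91 and 10.12 at 4 h, against 8.93, 9.03, 8.71 and 8.69 in the low doses. Its difference was 1.17 (SE 0.15, adjusted p = 0.00015). A second Angptl4 probe, dim with a mean of 6.74 at 4 h, differed by 0.13 and was not called. Stc2, a secreted glycoprotein related to the fish hormone stanniocalcin, read 8.37 and 8.43 at 4 h, against 7.15, 7.26, 7.48 and 7.50 in the low doses (1.05, SE 0.11, adjusted p = 2.86e-05). Neither gene overlapped between the groups, and the untreated arrays also lay below both 4 h arrays.

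Tmem100, Nrp1, Egfr and Errfi1 were core increases. Tmem100, a small membrane protein known from blood vessels, read 9.00 and 9.17 at 4 h, against 7.79, 7.68, 8.14 and 7.80 in the low doses, a difference of 1.23 (SE 0.13, adjusted p = 2.86e-05). A second Tmem100 probe, dim with a mean of 6.61 at 4 h, differed by 0.01 and was not called. Nrp1, a co-receptor for semaphorins and vascular endothelial growth factor, read 10.49 and 10.46 at 4 h, against 9.43, 9.49, 9.60 and 9.56. Its difference was 0.96 (SE 0.099, adjusted p = 2.86e-05), and its other probes differed by 0.93 and 0.85, both called. Egfr, the receptor of epidermal growth factor, read 9.62 and 9.47 at 4 h, against 8.43, 8.37, 8.54 and 8.69, a difference of 1.03 (SE 0.12, adjusted p = 6.3e-05). All low-dose and untreated arrays lay below both 4 h arrays for these 3 genes. Errfi1, an inhibitor of the Egfr kinase, was also higher, with 12.85 and 12.58 at 4 h against 11.99 to 12.13 in the low doses (0.66, adjusted p = 0.00122).

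The core also held Gadd45g, Fosl2, Cebpb, Dusp1 and Hif3a. Gadd45g, a stress sensor that activates MAP kinase signalling, read 11.27 and 11.02 at 4 h, against 10.22, 10.02, 9.91 and 9.98 in the low doses (1.12, adjusted p = 5.79e-05). A second Gadd45g probe differed by 0.56 and was called. Fosl2, a subunit of the transcription factor AP-1, read 9.89 and 9.70 at 4 h, against 9.04, 8.87, 8.59 and 8.88 (0.95, adjusted p = 0.000115). Cebpb, a transcription factor of hormone-responsive tissues, and Dusp1, a phosphatase that switches off MAP kinases, were higher by 0.67 and 0.72 (adjusted p = 0.00134 for each). Hif3a, a member of the hypoxia-inducible factor family, read 8.81 and 8.71 at 4 h, against 7.77, 7.84, 8.06 and 7.95 (0.85, adjusted p = 0.000391). In each of these genes the 4 h arrays lay above every low-dose and untreated array. Other probes of Fosl2 and Hif3a were dim, between 6.09 and 6.97 at 4 h, and were not called.

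Other core increases were mostly smaller. Zyx, a protein of cell adhesions, read 13.60 and 13.53 at 4 h, against 12.88 to 13.06 in the low doses, a difference of 0.60 (adjusted p = 0.000297). Mfap4, a microfibril protein, was higher by 0.76 (adjusted p = 0.000297) and Tgm2, a protein cross-linking enzyme, by 0.56 (adjusted p = 0.00418). Nrep, C1qtnf3, Ppic and Akr1cl, an aldo-keto reductase relative, were higher by 1.05, 0.92, 0.80 and 0.79. Zc3h13, a subunit of the RNA methylation machinery, was higher by 1.05 (adjusted p = 0.000203), with 10.11 and 10.29 at 4 h against 9.00 to 9.37 in the low doses and 9.65 and 9.72 untreated. A second Zc3h13 probe above background differed by 0.30 and was not called (adjusted p = 0.18), and against the vehicle arrays the gene differed by 0.24 (adjusted p = 0.454). Trappc3, a vesicle transport subunit, was higher than in the low doses by 0.91 and was not called against untreated testes: it read 11.41 and 11.56 at 4 h, against 10.52 to 10.66 in the low doses and 11.54 and 11.80 untreated.

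**Figure D1:**
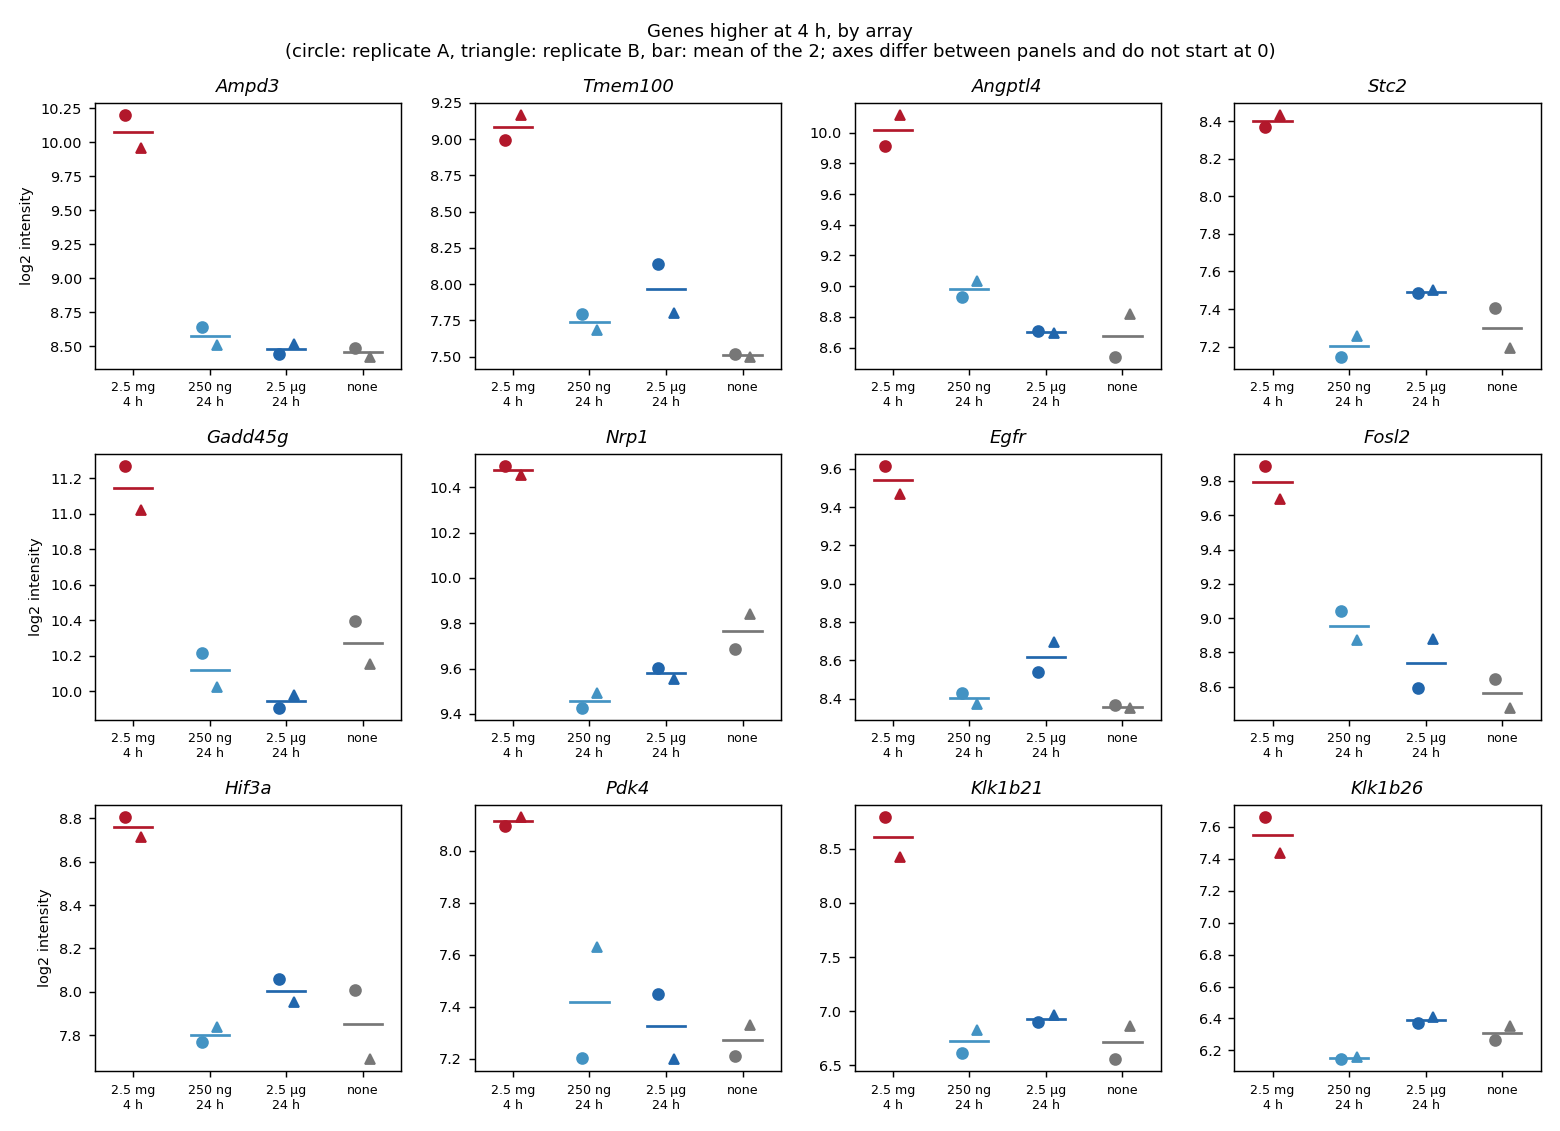
Log2 intensity (vertical axis, a separate range in each panel) of 12 genes higher at 4 h, for 2.5 mg at 4 h, 250 ng and 2.5 µg at 24 h and untreated day 19 testes; circles are replicates A, triangles replicates B, and bars the mean of the 2. In every panel both 4 h arrays lie above all 6 other arrays shown; for Ampd3 they read 10.20 and 9.95 against at most 8.64.

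Several glandular kallikreins, serine proteases encoded side by side on chromosome 7, were higher at 4 h. In mice several of them are known from Leydig cells and from the androgen-dependent submandibular gland. Of 12 measured family members 9 were above background at 4 h, and 7 were called higher and 0 lower, against 3.25% called higher over all genes. The family was singled out after its values had been seen. The upstream sequences of 6 members are shown because these neighbouring genes include called and uncalled members. They are the 150 bases before the annotated start, from RefSeq (GRCm38.p6, plus strand), with the letters TTTAAA in capitals; Klk1b24, Klk1b21, Klk1b27, Klk1b26 and Klk1b5 were called higher and Klk1b8 was not called. Their positions are chr7:44188086-44188235, chr7:44102142-44102291, chr7:44052140-44052289, chr7:44012528-44012677, chr7:44216324-44216473 and chr7:43950516-43950665.
Klk1b24: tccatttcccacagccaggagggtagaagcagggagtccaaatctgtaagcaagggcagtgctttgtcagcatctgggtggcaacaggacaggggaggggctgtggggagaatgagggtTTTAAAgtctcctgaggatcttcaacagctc
Klk1b21: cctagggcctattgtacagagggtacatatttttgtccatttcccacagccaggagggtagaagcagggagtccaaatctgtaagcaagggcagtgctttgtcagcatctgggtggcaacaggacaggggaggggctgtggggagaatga
Klk1b27: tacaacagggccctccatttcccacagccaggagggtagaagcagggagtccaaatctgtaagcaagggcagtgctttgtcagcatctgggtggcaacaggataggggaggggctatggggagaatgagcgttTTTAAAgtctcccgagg
Klk1b26: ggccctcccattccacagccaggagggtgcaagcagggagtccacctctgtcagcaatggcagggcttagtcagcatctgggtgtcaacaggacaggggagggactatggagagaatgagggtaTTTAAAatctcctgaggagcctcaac
Klk1b5: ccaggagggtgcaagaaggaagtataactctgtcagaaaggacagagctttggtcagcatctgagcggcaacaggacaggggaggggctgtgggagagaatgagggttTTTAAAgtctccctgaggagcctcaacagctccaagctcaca
Klk1b8: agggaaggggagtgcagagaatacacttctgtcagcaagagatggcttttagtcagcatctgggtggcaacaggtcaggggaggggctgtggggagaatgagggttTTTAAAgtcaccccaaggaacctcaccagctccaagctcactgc
Up to 250 bases of each promoter were aligned with Klk1b24, and identity was 97.7% for Klk1b21, 91.9% for Klk1b27, 84.7% for Klk1b26, 85.4% for Klk1b5 and 84.0% for Klk1b8. The lowest identity was 78.8%, for Klk1. The letters TTTAAA, which read the same on both strands, occurred in these 150 bases in 10 of 12 kallikreins and in 2218 of 32851 promoters (6.75%) of all genes. Klk1b21 and Klk1, both called higher, were the kallikreins without them, and 215 and 170 of their bases aligned with Klk1b24. The bases shown for Klk1b21 end at letters that stand just before TTTAAA in Klk1b24. The bases searched for Klk1 end at letters that stand still earlier in Klk1b24. In both genes the stretch after these bases was not searched, so neither Klk1b21 nor Klk1 is known to lack TTTAAA. A match of letters is a description and not a site. The kallikreins are close paralogs, and whether a probe also reads a neighbour was not tested, so the members are uncertain as single genes.

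Klk1b26 had a log2 intensity of 7.66 and 7.43 at 4 h, against 6.15, 6.16, 6.37 and 6.41 in the low doses, where it was not above background. It was therefore at least 2.01-fold higher (adjusted p = 0.00108). Klk1, the tissue kallikrein itself, read 7.63 and 7.31 at 4 h, against 6.15 to 6.48 in the low doses, and was at least 1.91-fold higher (adjusted p = 0.000944). Klk1b24 read 7.96 and 7.55 at 4 h, against 6.34, 6.75, 6.61 and 6.60, a difference of 1.18 (SE 0.22, adjusted p = 0.00418). Each of these 3 belongs to the core, and for each both 4 h arrays lay above every low-dose array. Klk1b27 differed by 1.41 (adjusted p = 0.00399) and Klk1b21 by 1.78 (SE 0.38, adjusted p = 0.00828). Other Klk1b21 probes differed by 0.40 and 0.34 and were not called. A second probe differed by 0.90 for Klk1b24 and by 1.05 for Klk1b27, both called. That of Klk1b26 differed by 0.22, was not above background and was not called. Klk1b21 read 8.79 and 8.42 at 4 h, against 6.61, 6.83, 6.90 and 6.96 in the low doses, but its call was lost when either 4 h array was left out. It read 9.19 on vehicle replicate A and 6.46 on replicate B, and its adjusted p in the fit without the vehicle arrays was 1.3e-07. Klk1b22 was higher by 0.68 (adjusted p = 0.0466, and 0.0541 in the fit without the vehicle arrays). Klk1b5 was not above background in the low doses and was at least 1.32-fold higher (adjusted p = 0.0144). Against the vehicle arrays Klk1b26, Klk1b24, Klk1b27 and Klk1b21 differed by 0.72, 0.53, 0.67 and 0.78 and were not called, and Klk1 differed by 0.99 (adjusted p = 0.00655). Klk1b1, Klk1b8, Klk1b9, Klk1b11 and Klk1b16 were not called, with log2 intensities between 5.99 and 6.64 at 4 h.

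The consensus of steroid receptor binding, AGAACA followed by any 3 bases and TGTTCT, was sought on both strands of the 250 bases before each annotated start. It occurred in 3 of 32851 promoters (0.00913%) and in 0 of the 24 promoters found for 20 of the 27 higher core genes. Either of its arms alone, AGAACA or TGTTCT, occurred in 1 of those 24 promoters (4.17%), that of Klk1b24, and in 5284 promoters (16.1%) of all genes. Among the lower core genes 1 of 23 promoters (4.35%) held an arm.

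Targets shared by glucocorticoid and androgen receptors showed calls in one direction. Of 23 measured, 9 were called higher and 0 lower, against 3.25% called higher over all genes. Their median difference was 0.26, against 0.011 over all genes. Gadd45g, Hif3a, Dusp1 and Errfi1 are described above. Pdk4, which restrains the use of glucose by mitochondria, read 8.10 and 8.13 at 4 h, against 7.20, 7.63, 7.45 and 7.20 in the low doses (0.74, adjusted p = 0.00252). Sgk1, a kinase that controls ion transport, read 11.65 and 11.33 at 4 h, against 10.97, 10.997, 10.77 and 11.04 (0.55, adjusted p = 0.014). Fkbp5, a co-chaperone of steroid receptors, read 10.15 and 10.34 at 4 h, against 9.68, 9.67, 9.89 and 9.89 (0.46, adjusted p = 0.0102). The 4 h arrays were the highest in all 3 genes. Zbtb16, a transcriptional repressor, and Tsc22d3, the glucocorticoid-induced leucine zipper, were higher by 0.42 (adjusted p = 0.0309) and 0.41 (adjusted p = 0.0393). Per1, another gene of this list and a clock component, differed by 0.03 (adjusted p = 0.921). With 4 h replicate A left out 7 of the list were called, and with replicate B left out 4.

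The androgen-responsive Sertoli cell genes showed little at 4 h, where 3.25% of all genes were called higher. Of 17 measured 1, Spock1, was called higher and 0 lower, the median difference was 0.07, and the call of Spock1 was lost without either 4 h array, 250 ng replicate B or either 2.5 µg array. Rhox5, the homeobox gene long used as a readout of androgen in Sertoli cells, read 8.98 and 9.33 at 4 h, against 8.19, 8.16, 8.50 and 8.30 in the low doses and 8.00 and 7.83 untreated. The groups did not overlap, but the difference of 0.87 had an SE of 0.38 and an adjusted p of 0.205. Drd4, a dopamine receptor, read 9.29 and 9.56 at 4 h, against 8.18, 8.14, 8.79 and 9.00, and differed by 0.90 (adjusted p = 0.184). In the fit without the vehicle arrays, whose replicates read 10.92 and 8.17 for Rhox5, the adjusted p was 0.00146 for Rhox5 and 0.00275 for Drd4. In that fit 4 genes of the list were called. Eppin, a Sertoli and epididymal protease inhibitor, differed by 0.17 (adjusted p = 0.603).

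Across the time course these genes followed separate patterns, given as differences from the same 4 low-dose arrays from 2 h over 4, 8, 12 and 24 h to 48 h, with 1 array at 24 h. Rhox5 differed by 0.13, 0.87, 1.80, 2.68, 3.63 and 3.47, and was called from 8 h on. Hif3a differed by 0.71, 0.85, 0.44, 0.04, -0.36 and -0.28, and was called at 2 and 4 h. Pdk4 differed by 0.74, 0.74, 0.30, 0.05, -0.09 and -0.17, with the same calls. Egfr, Fosl2 and Errfi1 also had their largest differences at 4 h, of 1.03, 0.95 and 0.66, and differed by 0.23, 0.35 and 0.14 at 12 h. Ampd3 differed by 0.91, 1.55, 2.16, 1.67, 2.09 and 1.64 and was called at every time. Nrp1 differed by 0.22 at 2 h, where it was not called, and by 0.80 to 1.06 from 4 h on. Over the 27 higher core genes, chosen at 4 h, the median difference was 0.58, 0.92, 0.70, 0.36, 0.33 and 0.13, and 16, 27, 20, 12, 9 and 10 of them were called higher. Over all genes the share called higher was 0.331% at 2 h, 3.25% at 4 h, 0.929% at 8 h, 0.493% at 12 h, 2% at 24 h and 8.33% at 48 h. All times share the low-dose arrays, so the series is a description.

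**Figure D2:**
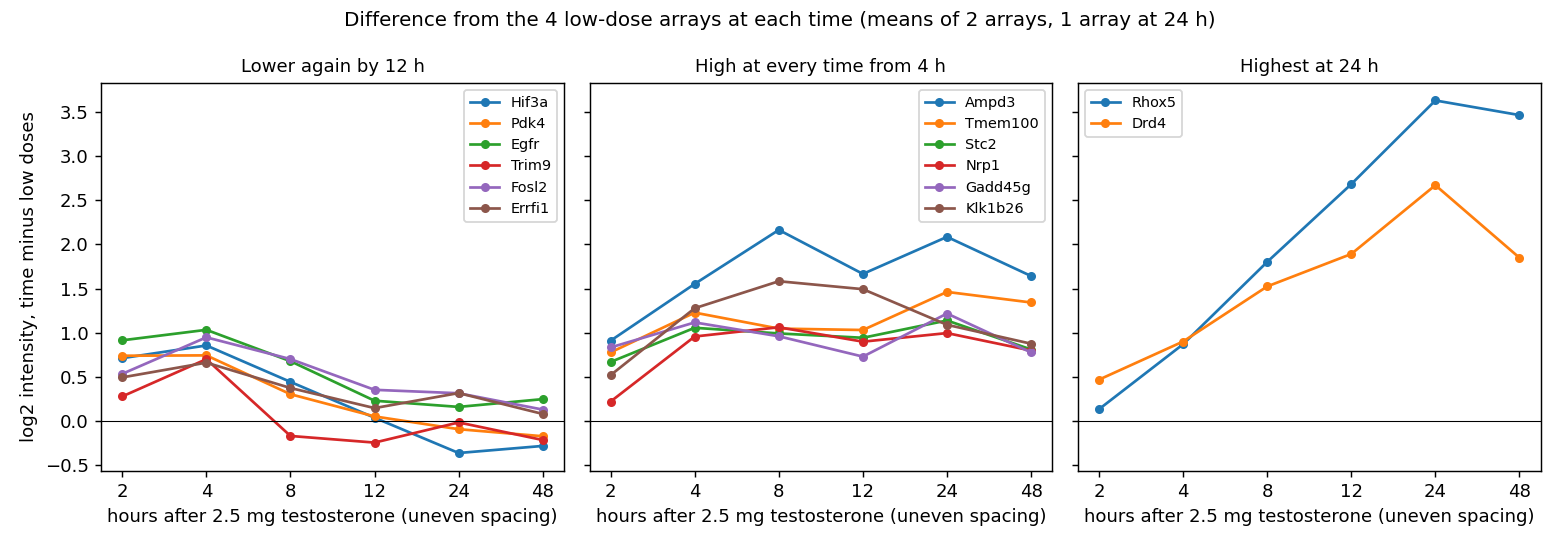
Difference in log2 intensity from the 4 low-dose arrays (vertical axis) against hours after 2.5 mg testosterone (horizontal axis, uneven spacing), each point the mean of 2 arrays and of 1 array at 24 h. Genes of the left panel stand near 0 or at most at 0.35 by 12 h, genes of the middle panel stay above 0.7 from 4 h on, and Rhox5 and Drd4 on the right reach 3.63 and 2.67 at 24 h.

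The immediate early genes, which cells switch on within minutes of a stimulus, went both ways. Of 32 measured, 3 were called higher and 2 lower, against 7.02% called over all genes, with a median of 0.10, without 4 h replicate A 2 and 1, and without replicate B 1 each way. Besides Fosl2, Klf6, a zinc finger factor, was higher by 0.60 (adjusted p = 0.00195) and Ccn2, a matrix-associated growth factor regulator, by 0.50 (adjusted p = 0.0112). Csrnp1, a nuclear protein induced by axin, read 8.63 and 9.44 at 4 h, against 10.49, 10.06, 9.81 and 10.35 in the low doses (-1.14, adjusted p = 0.00609), and differed by -0.74 (adjusted p = 0.122) without 4 h replicate A. Arc, a gene best known from neurons, read 9.08 and 8.18 at 4 h, against 9.12, 9.66, 9.19 and 9.40 in the low doses (-0.71, adjusted p = 0.0422). Its difference was -0.26 (adjusted p = 0.71) without 4 h replicate B, and its call was also lost without 250 ng replicate B or either 2.5 µg array. Fos, Jun and Egr1 differed by 0.20, 0.18 and 0.37, none of them called, and Myc was not above background. Among 25 inhibitors of growth factor, MAP kinase and cytokine signalling 2 were called higher, Errfi1 and Rgs2, a regulator of G protein signalling (0.58, adjusted p = 0.00517). A second Rgs2 probe differed by 0.13 and was not called.

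Steroid synthesis showed no call at 4 h. Of 13 measured steroidogenic genes 0 were called in either direction by limma, 1 had an unadjusted p under 0.05, the median was 0.04, and 1 was called in the fit without the vehicle arrays. Cyp17a1, the enzyme that makes androgen precursors in Leydig cells, read 8.36 and 8.23 at 4 h, against 7.49, 7.05, 7.29 and 7.44 in the low doses, without overlap. Its difference of 0.98 had an adjusted p of 0.253, and of 0.000332 in the fit without the vehicle arrays, which read 10.92 and 7.46. Star, the cholesterol carrier of steroid synthesis, differed by 0.03 and Insl3 by 0.18, and neither was called. Of 10 Leydig cell markers 1 was called higher and 0 lower, against 3.25% called higher over all genes. The called marker was the kallikrein Klk1b24 described above.

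Markers of other somatic cells gave a mixed picture. Over all genes 3.25% were called higher and 3.76% lower. Of 11 genes that mark interstitial cells or Leydig cells of fetal and immature type, 4 were called higher and 0 lower, with a median of 0.23. These were Tcf21, a factor of interstitial progenitors, by 0.65 (adjusted p = 0.00739), Pdgfra, a receptor of the same cells, by 0.65 (adjusted p = 0.00226), Dlk1 by 0.63 and Thbs2 by 0.63. Of 22 genes of fibrillar and basement membrane matrix 5 were called higher and 0 lower, with a median of 0.25. Col15a1 was higher by 0.53 (adjusted p = 0.0267) and Hspg2, the proteoglycan perlecan, by 0.43 (adjusted p = 0.012). The calls of the interstitial and matrix lists rested on 4 h replicate B, as did most calls over all genes, and fewer held without 250 ng replicate B. The matrix list had 3 without 4 h replicate A and 2 without 2.5 µg replicate B. Endothelial markers were higher in 3 of 13, led by Egfl7 with 0.73 (adjusted p = 0.00182). Other Egfl7 probes differed by 0.35 and -0.098 and were not called. The summed intensity of the endothelial markers was 5323 to 6017 at 4 h, against 3944 to 4865 in the low doses. They were higher in 1 without 4 h replicate A or 250 ng replicate B and in 0 without 4 h replicate B. Sertoli cell markers were higher in 2 of 15, Inhba by 0.50 and Rhox8 by 0.39, in 1 without 4 h replicate A, and in 0 without 4 h replicate B, 250 ng replicate B or 2.5 µg replicate B.

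The summed intensity of 4 erythroid genes was 10300 to 10850 at 4 h, against 6430 to 8103 in the low doses, and 1 of the 4, Slc4a1, an anion carrier of red cells, was called higher (0.75, adjusted p = 0.0237), though not without 4 h replicate B, 250 ng replicate B or 2.5 µg replicate B. Hba-a1, a globin, read 13.26 and 13.32 at 4 h, against 12.57 to 12.92, and was not called (adjusted p = 0.26). The part of blood or vessels in the interstitial, matrix and endothelial calls was not tested. No peritubular myoid marker of 10, macrophage marker of 13 or epididymal and efferent duct marker of 8 was called by limma, and 2, 2 and 0 of them had an unadjusted p under 0.05.

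Among the lower genes of the core, several read lowest at 4 h, higher in the low doses and highest in untreated testes. Rpl39l, the testis paralog of a ribosomal protein, read 8.68 and 8.59 at 4 h, against 9.77, 10.12, 9.47 and 9.84 in the low doses and 11.71 and 11.55 untreated. Its difference from the low doses was -1.17 (SE 0.14, adjusted p = 0.000115). Ddx4, the germ cell RNA helicase known as Vasa, read 10.95 and 10.91 at 4 h, against 11.67, 11.85, 11.52 and 11.56 in the low doses and 12.58 and 12.32 untreated (-0.72, adjusted p = 0.00059). The 3 groups did not overlap in either gene, but other Ddx4 probes differed by -0.35 and 0.16 from the low doses and were not called. Grtp1, which acts on small GTPases, fell by 1.36 on the log2 scale (adjusted p = 0.000115), and 1 of its other probes fell by 0.68. Stmn1, a regulator of microtubules, read 10.84 and 11.09 at 4 h, against 11.55 to 11.75 in the low doses and 13.07 and 12.87 untreated. The vehicle arrays read 9.26 and 9.15 for Rpl39l, 11.67 and 11.58 for Ddx4 and 11.78 and 11.42 for Stmn1. In these genes the arrays labelled vehicle thus also lay below the untreated ones. The cause of this order was not tested. Rbm14, Lcorl, Ywhae and ND4L, a mitochondrial subunit, fell by 0.95, 1.02, 0.91 and 1.16 against the low doses. The lower core genes also differed across time: their median was -0.56, -0.78, -0.54, -0.37, 0.06 and -0.27 over the same hours.

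Other lower core genes were not called lower at low doses than in untreated testes. Gpd2, the mitochondrial glycerol-3-phosphate dehydrogenase, read 6.83 and 7.38 at 4 h, against 9.15, 8.75, 8.48 and 8.58 in the low doses and 8.70 and 8.92 untreated. Its difference was -1.64 (SE 0.22, adjusted p = 0.000286), and its other probe differed by -0.31, not called and not above background at 4 h. Stc1, the other mammalian stanniocalcin, read 8.32 and 8.94 at 4 h, against 9.54, 9.93, 10.23 and 9.99 in the low doses and 9.55 and 9.39 untreated. It fell by 1.29 on the log2 scale (SE 0.16, adjusted p = 0.000149), whereas Stc2 rose. S100a1, a calcium-binding protein, fell by 0.70 against the low doses but read 7.49 and 7.52 at 4 h, against 7.57 and 7.67 untreated.

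In several genes of meiotic cells and spermatids the 4 h replicates stood apart. Ccna1, the cyclin of male meiosis, read 8.90 and 7.43 at 4 h, against 9.44, 10.09, 9.36 and 9.71 in the low doses (-1.48, SE 0.30, adjusted p = 0.00652). Pgk2, a glycolytic enzyme of spermatocytes and spermatids, read 11.41 and 9.96 at 4 h, against 11.34, 11.80, 11.28 and 11.80 (-0.87, adjusted p = 0.0454, and 0.0523 in the fit without the vehicle arrays). Adam3, a sperm surface protein, read 12.14 and 10.77 at 4 h, against 12.30, 12.81, 12.15 and 12.85 (-1.07, adjusted p = 0.018). Replicate B was below every low-dose array in each, while replicate A lay nearer to them, for Adam3 just below their lowest array and for Pgk2 inside their range. Sycp1, a protein of the synaptonemal complex, did not share this gap, with 10.53 and 10.57 at 4 h against 10.99, 11.32, 11.22 and 11.11 in the low doses (-0.61, adjusted p = 0.0187). Its difference lay between -0.69 and -0.52 with any 1 array left out, and its call was lost without either 4 h array or 250 ng replicate B. Of 25 meiotic prophase genes 4 were called lower and 0 higher, and of 28 spermatid genes also 4 and 0, against 3.76% called lower over all genes. Both counts rested on 4 h replicate B, as did most calls over all genes. Without 250 ng replicate B both counts were 1, and without 2.5 µg replicate B the spermatid count was 1. The summed intensity of the spermatid genes was 61490 to 69500 at 4 h, against 72780 to 77650 in the low doses.

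Spermatogonial markers went both ways, while over all genes 3.25% were called higher and 3.76% lower. Of 21 measured, 4 were called higher and 3 lower, and these counts were 2 and 2 without 4 h replicate A, 0 and 1 without replicate B, and 0 and 3 without 250 ng replicate B. Sall4, a stem cell factor, was higher by 0.57 (adjusted p = 0.0362), and Kit, the receptor of differentiating spermatogonia, by 0.46 (adjusted p = 0.0424). Id4, a marker of spermatogonial stem cells, fell by 0.68 on the log2 scale (adjusted p = 0.00134) and Stra8, which starts meiosis, by 0.60 (adjusted p = 0.037). A second Id4 probe differed by -0.29 and was not called. Kit overlapped between the groups, with 11.39 and 11.62 at 4 h against 10.83, 10.86, 11.47 and 11.01 in the low doses.

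Among called decreases in which both 4 h arrays lay below all low-dose and untreated arrays, the largest lay outside the core. Gm20815, a multicopy Y chromosome gene, read 6.50 and 6.36 at 4 h, against 10.53, 9.00, 7.68 and 8.12 in the low doses and 10.75 and 9.46 untreated. It was not above background at 4 h and was at least 4.89-fold lower (adjusted p = 0.0117), and signals of its near-identical copies cannot be separated. Cfap69, a protein of sperm flagella, read 8.42 and 8.11 at 4 h, against 11.36, 9.27, 11.15 and 9.41 in the low doses (-2.03, adjusted p = 0.0235). The low-dose arrays of both genes were widely spread. Prss39, a testis serine protease, read 9.17 and 7.42 at 4 h, against 9.50, 10.28, 9.23 and 9.95, a difference of -1.45 (adjusted p = 0.0187), and of -0.57 (adjusted p = 0.583) without 4 h replicate B. The widely expressed gene Erdr1, higher by 1.34 (adjusted p = 0.00684), was likewise outside the core: it read 13.09 and 13.08 at 4 h, against 10.93, 11.60, 11.90 and 12.55 in the low doses, and 13.19 and 12.83 on the vehicle arrays.

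**Figure D3:**
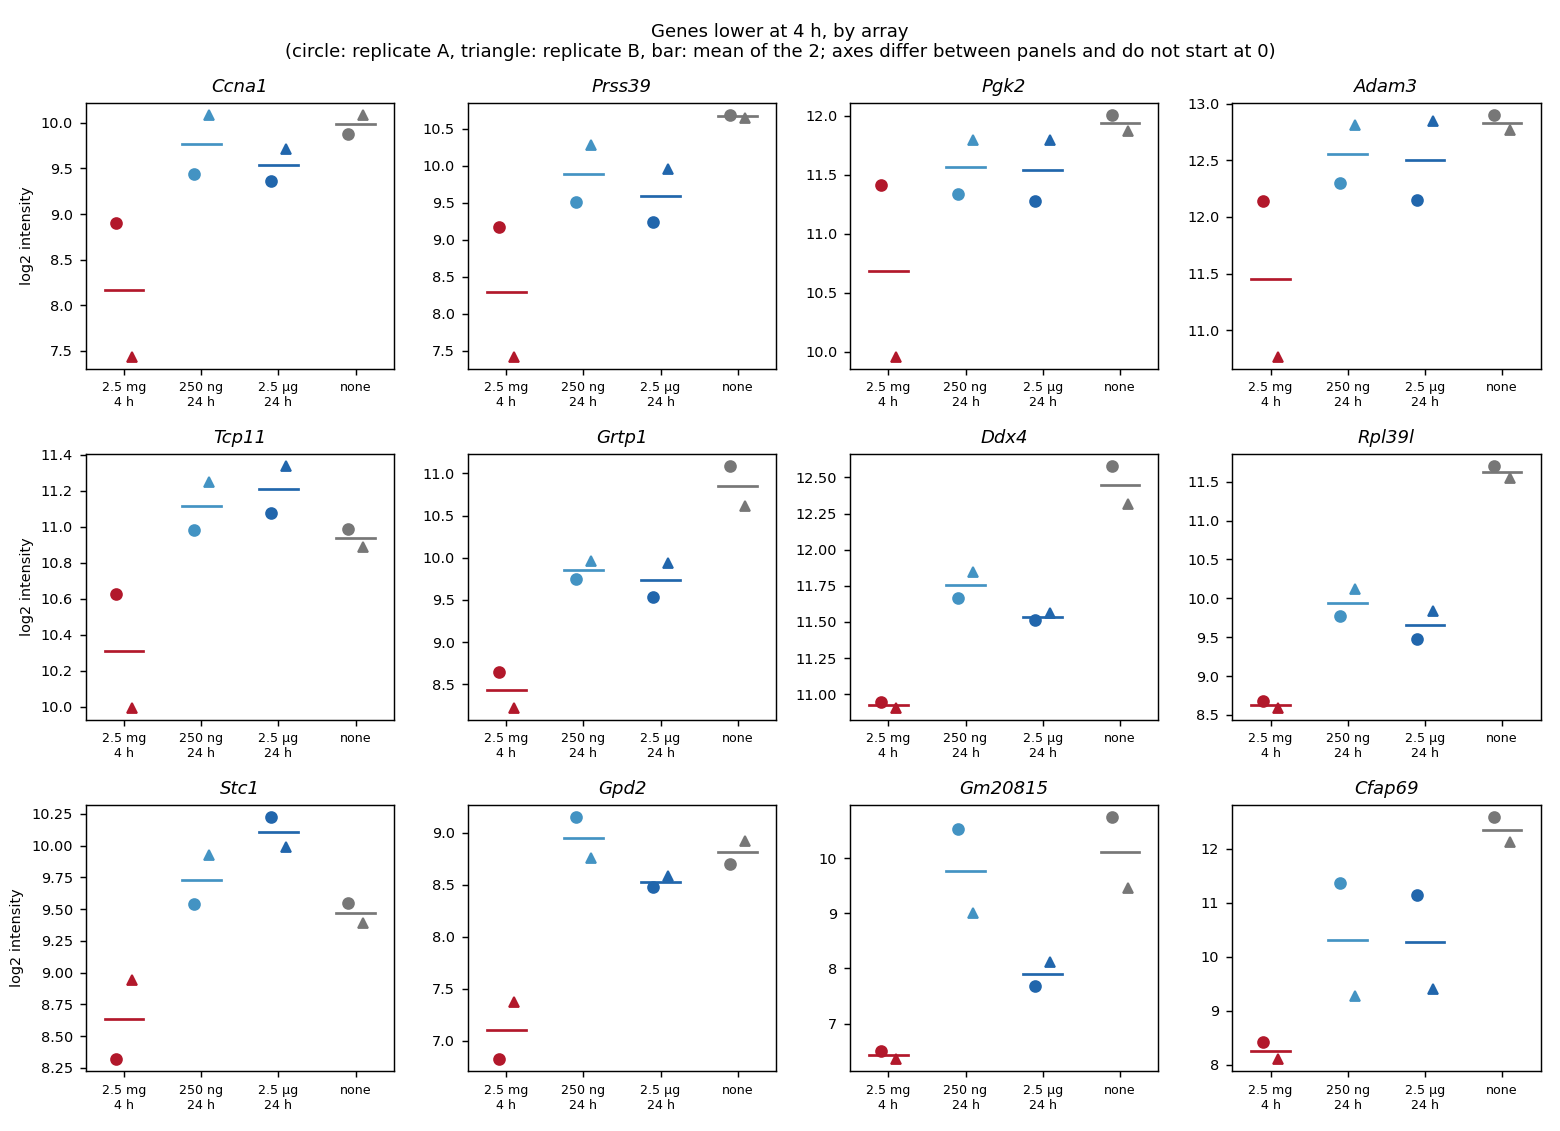
Log2 intensity (vertical axis, a separate range in each panel) of 12 genes lower at 4 h, for 2.5 mg at 4 h, 250 ng and 2.5 µg at 24 h and untreated day 19 testes; circles are replicates A, triangles replicates B, and bars the mean of the 2. The top row shows the gap between both 4 h arrays in germ cell genes, such as 8.90 and 7.43 for Ccna1, and Ddx4 and Rpl39l show the 4 h arrays below the low doses and these below the untreated arrays. The vehicle arrays are not shown.

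Stress and clock genes had calls in the lower direction against the low doses. Of 24 genes of the heat shock and unfolded protein responses 3 were called lower and 0 higher, against 3.76% called lower over all genes. Hspa5, the main chaperone of the endoplasmic reticulum, read 8.85 and 8.84 at 4 h, against 9.60, 9.74, 9.32 and 9.37 in the low doses and 11.15 and 10.83 untreated (-0.66, adjusted p = 0.00214). Of 16 circadian clock genes 3 were called lower and 0 higher: Bhlhe40 by a difference of -0.56, Dbp by -0.49 and Per3 by -0.64, though a second Per3 probe differed by 0.42. With either 4 h array left out, 1 clock gene was called. The direction turned with the reference: 2 clock genes were called higher and 1 lower against untreated testes, and 1 higher and 0 lower against the vehicle arrays. Dbp read 11.55 and 11.76 at 4 h, against 12.22, 12.05, 12.21 and 12.12 in the low doses and 11.63 and 11.61 untreated, and the sources used here give no hour of day for the collections. Idi1 of cholesterol synthesis (-0.67), Aldh1a2 of retinoic acid synthesis (-0.50), Jam2 of cell junctions (-0.54) and Pcna of DNA replication (-0.46) were called lower in lists of 12, 19, 14 and 21 genes. Other Jam2 probes were not called. Mcm5, a replication helicase subunit, was higher by 0.38 and Rsad2, an interferon-induced antiviral protein, by 0.81 (adjusted p = 0.0153), each the single higher call of its list. The calls of the heat shock, cholesterol, vitamin A and cell cycle lists rested on 4 h replicate B, as did most calls over all genes. Those of Rsad2 and Jam2, in the interferon and tight junction lists, were lost when either 4 h array was left out.

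**Figure D4:**
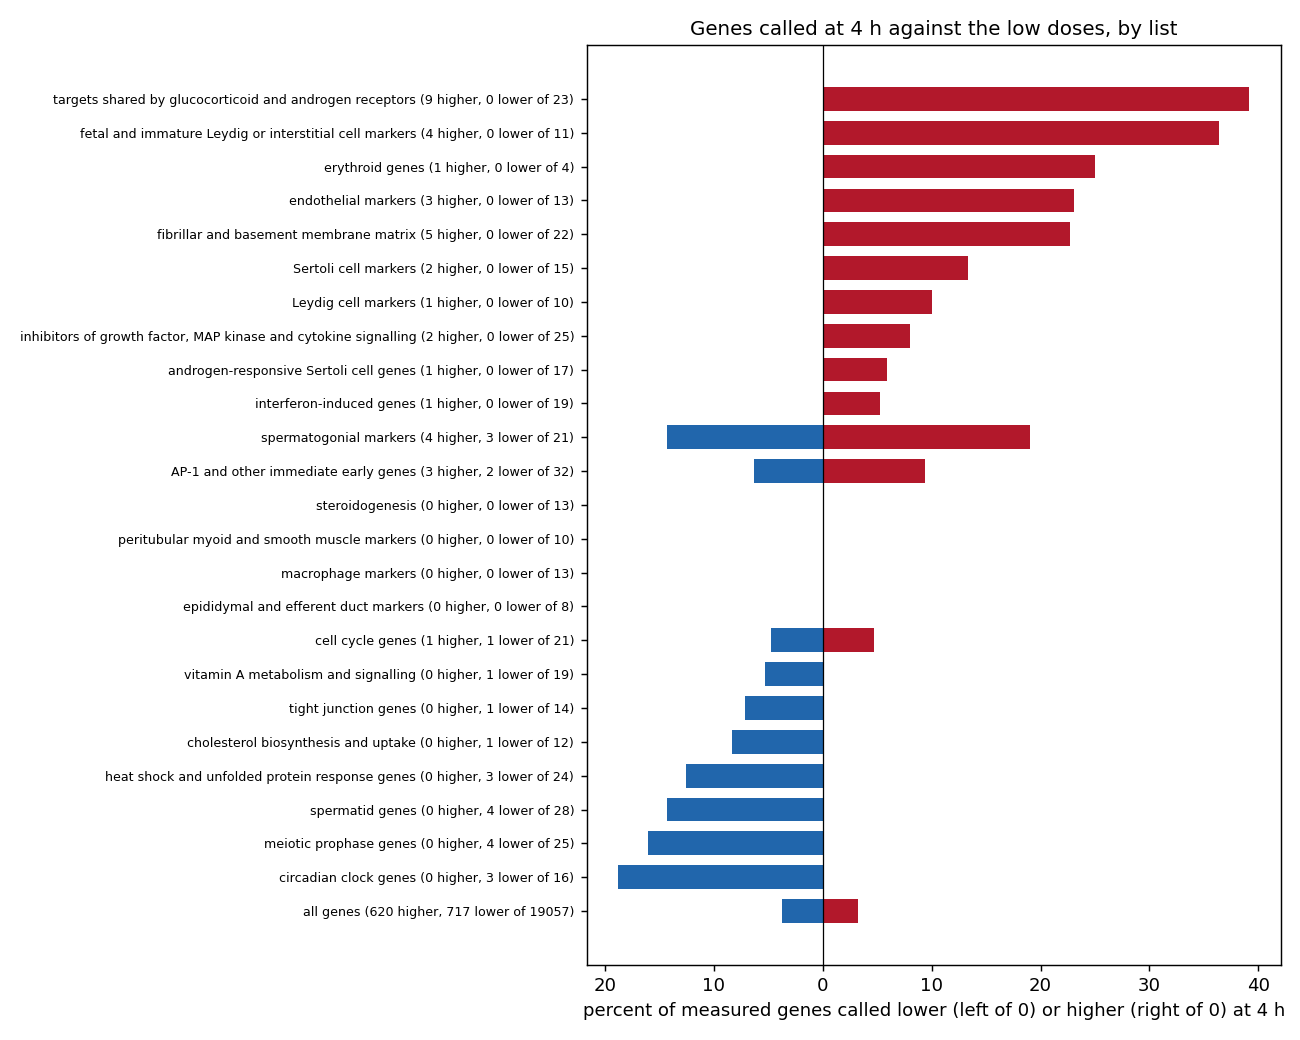
Percent of the measured genes of each list called lower (left of 0) or higher (right of 0) at 4 h against the low doses, with the counts in the row labels and all genes in the bottom row. Targets shared by glucocorticoid and androgen receptors had 9 of 23 called higher, against 620 of 19057 genes in all.

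Against its neighbours in time the 4 h testis differed in very few genes. Against 2 h limma called 3 genes (0.0157%), with 1581 at an unadjusted p under 0.05, and against 8 h it called 3 (0.0157%), with 1211 unadjusted. Nrp1 was higher at 4 h than at 2 h, with 10.49 and 10.46 against 9.77 and 9.71 (0.74, adjusted p = 0.0486). Gfpt1, the first enzyme of hexosamine synthesis, read 12.30 and 11.67 at 4 h, against 12.86 and 13.35 at 2 h (-1.12, adjusted p = 0.0486). Gpd2 was lower than at both times: 6.83 and 7.38 at 4 h, against 8.22 and 8.99 at 2 h (-1.50, adjusted p = 0.0486) and 8.82 and 8.92 at 8 h (-1.77, adjusted p = 0.00932). Trim9, a ubiquitin ligase, was higher at 4 h than at 8 h, with 8.92 and 9.19 against 8.28 and 8.08 (0.87, adjusted p = 0.0202). Slc25a18, a mitochondrial carrier, was the third gene called against 8 h, with 8.61 and 8.91 at 4 h against 10.05 and 9.98. These counts moved with single arrays: against 2 h they lay between 0 without 4 h replicate B and 248 without replicate A, with 54 without 2 h replicate B, and against 8 h between 1 without either 8 h array and 113 without 4 h replicate A.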

How the data were processed

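Testis RNA was extracted with TRI reagent and RNeasy columns, labelled with biotin during amplification and scanned, and BeadStudio was used (version not given in the sources used here), per the labels' protocols. The authors deposited normalized intensities, not yet on a log scale, with array medians between 108.1 and 108.3 and no background subtracted as far as the values show. A second table was not used because its 76 per-sample columns match no label. Intensities deposited by the authors were converted to log2 without a pseudocount. The background threshold of 93.08 came from the mode (74.37) and the spread below it (8.041) at a one-sided 0.01, and 26919 to 26958 probes exceeded it on an array. The number of arrays limits the precision.

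Of 45281 probes 34885 had 1 gene symbol, 18 several and 10378 none listed. Symbols were taken from the platform annotation, and 0 needed updating. A model with 1 mean for each of 11 groups was fitted to the 21 LuRKO arrays of day 19 (10 residual and 12.09 prior degrees of freedom) with limma 3.58.1 (lmFit and eBayes with trend) in R 4.3.3. Benjamini-Hochberg adjusted p-values were computed over the 34885 probes and genes were called under 0.05. Each gene was represented by its brightest probe, which gave 19057 genes. For a gene below the threshold on every array of a group, the dim side of the fold was, per array, its own value or the threshold, whichever was greater. The labels do not say more of the replicates than that each pooled 2 animals, so p-values measure the spread between these samples. The scripts were tested on simulated data.

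The rule named the 12 largest called changes each way whose 4 h arrays lay beyond all low-dose and untreated arrays, up to 3 genes per list, up to 5 changes each way against 2 h and 8 h, and a panel of known androgen and early genes; core genes and list members beyond these were chosen after their values were seen. The 24 lists (432 distinct genes, 1 not matched) and the members were chosen with earlier results of these data known. Genes with several probes were called from 1 of them: of 1337 called genes 647 had other probes above background, and in 414 of these all lay on the same side. Promoters came from RefSeq tables of GRCm38.p6. Alternatives were other background corrections and scalings, other references and samples in the fit, the replicate letter as a block, and leaving out arrays. Letters did not pair the samples: deviations of same-lettered arrays from their group means correlated with those of the 4 h arrays with r between -0.218 and 0.0945.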

Additional observations from a re-analysis of the deposited data

Results flagged for a closer look

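Of 85 named genes, 1 had a low-dose array far from the other 3. The transcript 4930555G01Rik had a log2 intensity of 10.46 on the 2.5 µg replicate A array, against 10.74 to 10.77 on the others, so that the gap was 0.913 of the range, above the critical value for 4 samples. About 1 group in 20 exceeds this value by chance.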

How the results depend on the processing

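The calls against the low doses numbered 1337 as reported, 1341 and 1357 with normexp background correction at offsets 50 and 16, and 1337 with quantile normalization once more or scaling to one median. They numbered 596 with only the compared groups in the fit, 723 with the 250 ng arrays alone as reference, 598 with the 2.5 µg arrays alone, 1022 with the vehicle arrays, 3740 with the untreated arrays and 57 to 1313 without 1 array. Fitting only the groups compared gave 1834 against untreated, 1068 for low doses against untreated, 10 against 8 h, and 47, 143 and 351 for 2, 8 and 24 h against the low doses. All 38 arrays gave 7 against 2 h, 9 against 8 h, and 266 and 249 for 2 and 12 h. Against 2 h the count was 1 with only probes above background, without trend or with the replicate block, and 0 with the mean of a gene's probes, where the same comparison had 1581 genes at an unadjusted p under 0.05 in the reported fit. The replicate block gave 1262 against the low doses, 3668 against untreated and 4 against 8 h. The samples share only a letter, and crossing the letters of the 4 h arrays gave 3 against 8 h. Without the vehicle arrays the counts were 1386 and, against 8 h, 5. Genes called in the lists numbered 58, but 31 with the vehicle arrays as reference, 28 with the 2.5 µg arrays, 120 with the untreated arrays and 9 to 54 without 1 array. Leaving out 1 array gave 1802 to 3184 against untreated, 0 to 248 against 2 h, 1 to 113 against 8 h, 945 to 2287 for low doses against untreated, and 14 to 151, 29 to 344, 16 to 104, 387 to 735 and 1102 to 3140 for 2, 8, 12, 24 and 48 h. With the untreated arrays as reference Slc25a18 turned to -1.36 (adjusted p = 2.19e-07) and Dbp to 0.0399 (adjusted p = 0.859), and Lyz2 against untreated turned to 0.21 (adjusted p = 0.421) with the mean of its probes. The causes were not tested. Not all of the 85 named genes were called against the low doses. More of them lost a call without 4 h replicate B than without replicate A, and 35 lost it with the vehicle arrays as reference. Dim probes limit what the arrays can show: 15130 of 19057 genes were above background at 4 h or at low doses.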

Other observations

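Slc25a18, a mitochondrial carrier, separated the arrays in a way that did not follow dose or time. It read 8.61 and 8.91 at 4 h, against 10.05 and 9.98 at 8 h (log2 difference -1.25, adjusted p = 0.000218 in limma). The 25 µg arrays read 9.93 and 9.97 and the untreated arrays 10.07 and 10.18.

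Gm20815, not above background and at least 4.89-fold lower at 4 h, differed from the low doses by -0.97 at 2 h, -0.92 at 8 h, 1.98 at 12 h, 1.07 at 24 h and 3.70 at 48 h after 2.5 mg, and was called at 4 h and 48 h.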
